A study of Oryctolagus cuniculus with 14 samples.

Results

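The comparison described here sets corneas of clinically impaired rabbit eyes against corneas of naive eyes, 4 weeks after exposure to sulfur mustard vapor. Its members are 9 of the 14 RNA-seq libraries of the series, chosen by the clinical status in the labels: 5 labelled clinically impaired and 4 labelled naive. All came from New Zealand White rabbits. The impaired eyes had been exposed to the vapor, and the naive libraries carry the same 4-week label without an exposure. The remaining 5 libraries, from exposed eyes labelled clinically non-impaired, entered the filter on low counts and the estimate of the spread. Their own values appear beside the 4 genes given by ID and the genes without naive counts. Dose, scoring scale, sex, age and animal numbers are not given in the sources used here. Nothing in the labels ties the libraries to separate animals. The p-values therefore speak only of library-to-library spread, which may be technical in part or whole.

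The cornea is the clear front wall of the eye. It is built of a stratified epithelium that is renewed from stem cells at the limbus, a stroma of collagen laid down by keratocytes, and an inner endothelium that keeps the stroma from swelling. It normally holds no blood vessels. Sulfur mustard is an alkylating vesicant that reacts with DNA and proteins, and the cornea is among the tissues most sensitive to it. Some exposed eyes heal, whereas others develop a late injury known for inflammation, epithelial defects, clouding and ingrowth of vessels from the limbus. Whole corneas were sequenced, so a larger number of cells of a type and more RNA per cell cannot be told apart in any value below. The deposited files give Ensembl gene IDs without gene names, and 0 of the 23669 IDs were found in the reference table at hand. No gene could therefore be given a function, the tissue label was not checked against corneal markers, and markers of vessels, immune cells or conjunctiva were not examined. No sequence is shown, for the same reason.

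Library totals were 12002876 to 15954635 counts in impaired and 14133731 to 17488019 counts in naive corneas, with impaired 1 the lowest. A total of 10048 genes had enough counts to be tested. Levels are given in CPM, counts scaled to the library size after adjustment by trimmed means (TMM). They compare a gene between libraries, not genes with each other, because no gene lengths were used.

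Clinically impaired corneas carried a response that was wide and lopsided in size. Of the 10048 tested genes, 35.5% passed the test between impaired and naive corneas, 19.8% higher and 15.8% lower (edgeR's quasi-likelihood test, p adjusted by Benjamini-Hochberg, below 0.05). Asking for a change beyond 1.5-fold separated the directions. By edgeR's glmTreat at the same adjusted threshold, 738 genes (7.34%) had risen past 1.5-fold and 190 (1.89%) had fallen past it. The 738 genes had a median log2 fold change of 2.84, and the 190 genes one of -1.49, against 0.01 over all tested genes. Of the 738 genes, 27 had no count in any naive library. These were then set to the bound that 3 counts in the whole naive group would give. The median was again 2.84, but a median moves only if genes cross it. Without these 27 genes the median was 2.72.

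At the upper end, the fitted increase was 8-fold or more in 327 genes with at least 1 naive count, and 64-fold or more in 68 of these. A decrease of 8-fold or more was found for 12 genes, and one of 16-fold or more for 2. The 95% interval of the fold change was then read in place of its estimate, gene by gene and unadjusted for the number of genes. By this reading, 166 of the 327 genes lay wholly above 8-fold. No falling gene lay wholly below an 8-fold decrease, although 7 lay below a 4-fold decrease. The plot of fold change against level shows the difference between the directions.

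**Figure D1:**
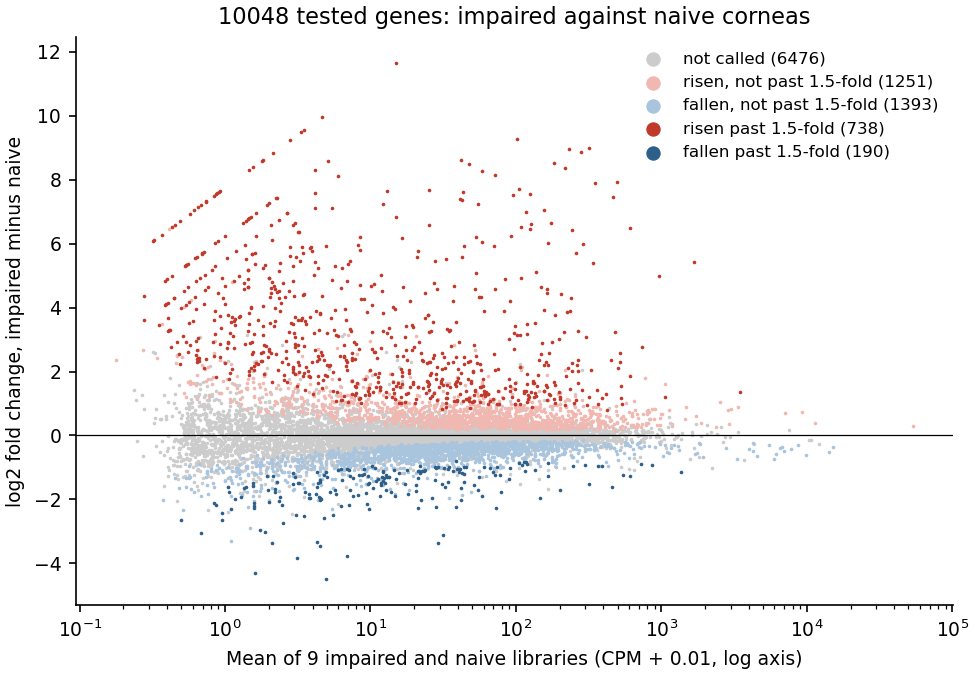
Log2 fold change of impaired against naive corneas (vertical) against the mean level of the 9 libraries in CPM (horizontal, log axis, 0.01 added), 1 point per tested gene. Red and blue mark the 738 genes that rose and the 190 that fell past 1.5-fold by glmTreat, pale points other called genes, and grey the 6476 genes not called. Rising genes reach far beyond the range of falling genes. The straight lines of points at the upper left are genes with few or no naive counts, whose fitted values depend on the prior count.

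The genes that rose past 1.5-fold started low. Their median level in naive corneas was 1.74 CPM, with quartiles of 0.188 and 13.2 CPM, whereas the median over all tested genes was 23.9 CPM. In impaired corneas their median was 14.9 CPM, with quartiles of 3.57 and 76.5 CPM. A group of 40 genes went from a mean under 1 CPM in naive to at least 10 CPM in impaired corneas, and 7 of these reached at least 100 CPM. The 190 falling genes had a median of 17.4 CPM in naive corneas, and in impaired corneas it was 6.49 CPM. Complete loss was rare: 32 of the 190 fell to a mean under 1 CPM, and each called falling gene kept at least 1 count over the impaired group. Because a gene low in naive corneas enters the test only if another group raises it, the low end holds risen genes in part by construction of the filter.

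Genes found on 1 side only were few. Over all 23669 gene IDs, 79 were at 0 throughout the naive group but had at least 1 count in each of the 5 impaired libraries. A total of 0 over the naive group allows a level of up to 0.0472 CPM (3 counts, for counting error only). In the reverse case, 4 genes had counts in each naive library and none in any impaired library, and none of these had enough counts to be tested. The 79 genes had a median of 0.488 CPM in impaired corneas before TMM scaling, and 22 of them reached a mean of 1 CPM. They took 0.0207% of the counts in impaired 4, 0.0127% in impaired 1, 0.00951% in impaired 3, 0.00524% in impaired 2 and 0.00413% in impaired 5. Of the 79, 38 also had counts in each non-impaired library and 1 had none there.

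The balance of the directions differed between bands of abundance. The bands were cut on both groups together, so a gene's own change helped to place it, and the low bands hold risen genes in part through the filter. In the band of 10 to 100 CPM, measured as the mean of the 9 libraries, 845 of 4809 genes rose and 897 fell, close to even. Between 100 and 1000 CPM, 494 of 1799 rose, 27.5%, and 256 fell, 14.2%. Among the 91 genes at 1000 CPM and over, 21 rose and 31 fell, 23.1% and 34.1%. Sizes were largest among low genes: the median log2 fold change of risen genes was 3.59 under 1 CPM, 1.93 from 1 to 10 CPM, 0.73 from 10 to 100 CPM, 0.57 from 100 to 1000 CPM and 0.74 at 1000 CPM and over. The median standard error of a log2 fold change was 0.52 under 1 CPM and 0.10 from 100 to 1000 CPM, so a low gene had to move further to pass.

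**Figure D2:**
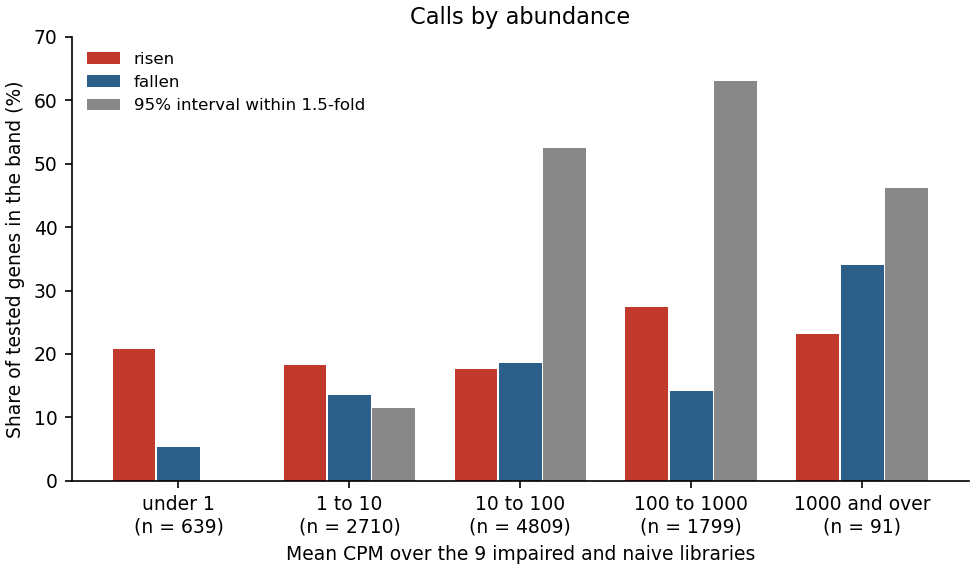
Share of the tested genes in 5 abundance bands that rose (red) or fell (blue) by the edgeR test, or whose 95% interval of the fold change lay within 1.5-fold in either direction (grey). The number of genes in each band stands under it. Risen genes outnumber fallen genes in the bands under 10 CPM and from 100 to 1000 CPM, and no gene under 1 CPM was measured closely enough for its interval to lie within 1.5-fold.

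For a large part of the tested genes the data bounded the change, by intervals not adjusted for the number of genes. The 95% interval lay within 1.5-fold in both directions for 4010 genes, 39.9% of those tested. Of these 4010, 612 passed the edgeR test with a small change. The share within 1.5-fold was 63.0% from 100 to 1000 CPM and 11.4% from 1 to 10 CPM. For 3078 genes, 30.6%, neither statement could be made: they did not pass the test, and their interval reached beyond 1.5-fold.

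The changes moved a large share of the counts. The 1989 risen genes took 20.4% of all counts in naive 1, 20.2% in naive 2, 20.9% in naive 3 and 23.5% in naive 4. In impaired corneas they took 30.5% in impaired 1, 34.7% in impaired 2, 30.6% in impaired 3, 38.4% in impaired 4 and 32.4% in impaired 5. The 1583 fallen genes went from 28.9% ± 1.70 of the counts in naive (SD, n = 4) to 19.7% ± 1.59 in impaired corneas (SD, n = 5). Since these genes were chosen by the same libraries, the shares describe the size of the shift and are not a test of it. Naive 4 stood nearest to the impaired libraries in both shares, and impaired 4 stood farthest from the naive libraries.

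**Figure D3:**
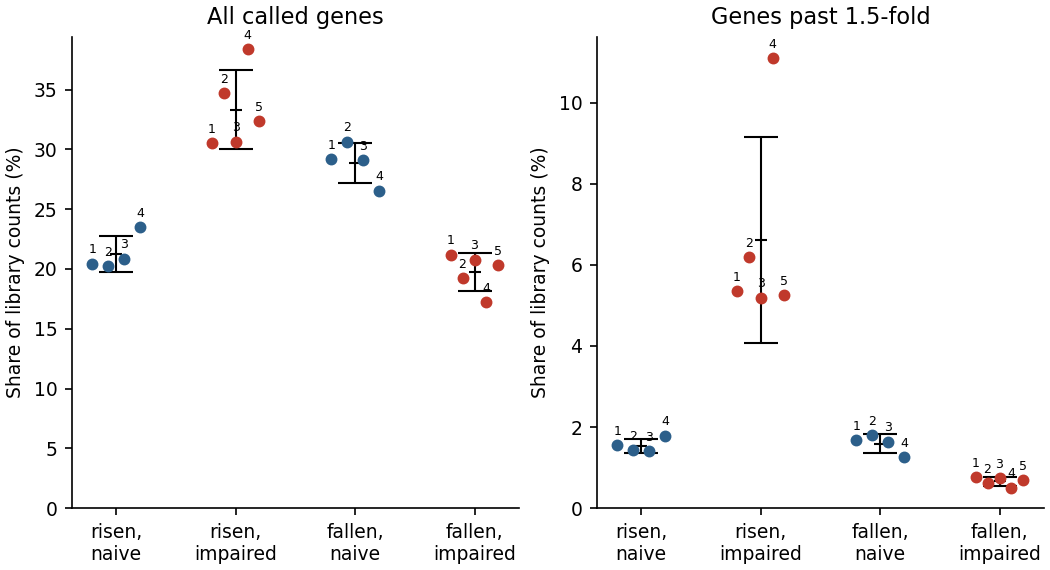
Share of each library's counts (vertical, percent) held by genes that rose or fell, for all called genes (left) and for genes past 1.5-fold (right). Points are single libraries with their replicate number, red impaired (n = 5) and blue naive (n = 4), and bars give the mean and SD. The groups do not overlap in any of the 4 measures, and impaired 4 holds 11.1% in genes risen past 1.5-fold, against 5.19% to 6.20% in the other impaired libraries.

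A few abundant genes made up a sizeable part of the gain and loss in mean CPM, counted over all tested genes, called or not. Genes called as risen held 82.9% of the gain, and genes called as fallen held 69.6% of the loss. The 10 genes with the largest gain in mean CPM made up 21.5% of the total gain, and all 10 passed the edgeR test. The 10 with the largest loss made up 25.8% of the total loss, and 8 of them passed. The most abundant gene alone gave 6.98% of the gain, going from 44477 to 49519 CPM in naive to 53455 to 65114 CPM in impaired libraries, a log2 fold change of only 0.31. Most of these 20 genes were abundant in both groups and moved by less than 1 on the log2 scale.

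Genes of another kind also stood among the 10 largest gains. The fifth in rank had 47.3 to 120 CPM in the naive libraries and 1415, 2194 and 6711 CPM as the lowest, median and highest of the impaired libraries (log2 fold change 5.41, edgeR adjusted p = 6.18e-05). The ninth had 41.2 to 78.7 CPM in naive and 935, 1169 and 3673 CPM in impaired libraries (log2 fold change 5.003, edgeR adjusted p = 6.92e-06). Both were highest in impaired 4, and in both the lowest impaired library lay far above the highest naive library. These genes were chosen after their values were seen.

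In the opposite direction, the gene with the largest loss fell from 15510 to 18661 CPM in naive to 11353 to 13168 CPM in impaired libraries (log2 fold change -0.51, edgeR adjusted p = 0.000156). The tenth largest loss did not pass. It had 3568 to 6540 CPM in naive corneas, and 1134, 1394 and 5711 CPM as the lowest, median and highest impaired library (log2 fold change -0.77, edgeR adjusted p = 0.28). Impaired 3 was the highest there, so the impaired libraries themselves lay apart in that gene.

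Counts were spread over more genes in impaired corneas. The smallest number of genes that together held 50% of the counts was 285, 274, 281 and 279 in naive 1 to 4, and 364, 293, 325, 327 and 308 in impaired 1 to 5. The groups did not overlap. Impaired corneas had a mean of 323 ± 26.6 genes (SD, n = 5), against 280 ± 4.57 in naive corneas (SD, n = 4), a difference of 43.7 genes (two-sided exact permutation test, p = 0.0159, adjusted p = 0.0357 over 3 tests). For 25% of the counts the means were 30.4 ± 3.78 and 23.3 ± 1.5 genes (exact permutation test, p = 0.0238, adjusted p = 0.0357; n = 5 and 4). For 75% they were 1469 ± 76.4 and 1430 ± 19.3 genes, and the groups overlapped (exact permutation test, p = 0.381; n = 5 and 4). Without the 10 most abundant genes of each library the difference at 50% was 34.1 genes, which missed the threshold (exact permutation test, p = 0.0556).

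The genes given by ID are the 2 that rose and the 2 that fell most by a rule that asks for separate groups, at least 10 counts over the lower group and a large change after subtraction of 2 standard errors.

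ENSOCUG00000011838 rose further than the spread of either group. It stood at 0.218, 0.0632, 0.205 and 0.830 CPM in naive 1 to 4, which is 4, 1, 3 and 14 counts. In impaired 1 to 5 it stood at 90.6, 148, 74.3, 114 and 99.9 CPM. No impaired library came near the naive range, and the highest impaired library was 1.99 times the lowest. The log2 fold change was 8.27 (SE 0.46, edgeR adjusted p = 1.78e-07; adjusted p over the alternatives 2.79e-70 to 4.51e-05). Since 14 of the 22 naive counts came from naive 4, the value was 9.25 without that library. In exposed corneas labelled non-impaired the level was 1.17, 0.370, 0.505, 0.251 and 0.413 CPM, a range that overlapped the naive one.

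ENSOCUG00000009885 was likewise near silent in naive corneas, at 0.109, 0.190, 0.0685 and 0.356 CPM, which is 12 counts in all. In impaired 1 to 5 it reached 121, 86.4, 27.1, 90.0 and 49.8 CPM. Impaired 3 was the lowest of these and still far above each naive library. The log2 fold change was 8.62 (SE 0.65, edgeR adjusted p = 2.24e-06; adjusted p over the alternatives 8.56e-43 to 0.000181). The non-impaired libraries had 0.819, 1.67, 0.252, 0.585 and 1.53 CPM, and the lowest of them lay within the naive range.

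ENSOCUG00000017002 fell from 3.98, 2.97, 3.56 and 3.02 CPM in naive 1 to 4 to 0, 0, 0.184, 0 and 0.587 CPM in impaired 1 to 5. Impaired 1, 2 and 4 held no count, and impaired 5 held 9 of the 12 impaired counts. The log2 fold change was -4.31 (SE 0.71, edgeR adjusted p = 0.000463; adjusted p over the alternatives 4.87e-08 to 0.00332), and -5.82 without impaired 5. In the non-impaired libraries it stood at 0.0585, 0.494, 0.252, 0.251 and 0.354 CPM, also below each naive library.

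ENSOCUG00000003757 fell evenly. It stood at 4.36, 3.60, 5.07 and 3.79 CPM in naive 1 to 4 and at 0.315, 0.421, 0.553, 0.219 and 0.457 CPM in impaired 1 to 5, on 29 impaired counts in all. The groups lay far apart, with little spread inside either. The log2 fold change was -3.38 (SE 0.32, edgeR adjusted p = 7.47e-06; adjusted p over the alternatives 6.26e-18 to 0.000155). The non-impaired libraries had 1.05, 1.11, 0.589, 0.418 and 0.767 CPM, below each naive library and overlapping the impaired range.

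**Figure D4:**
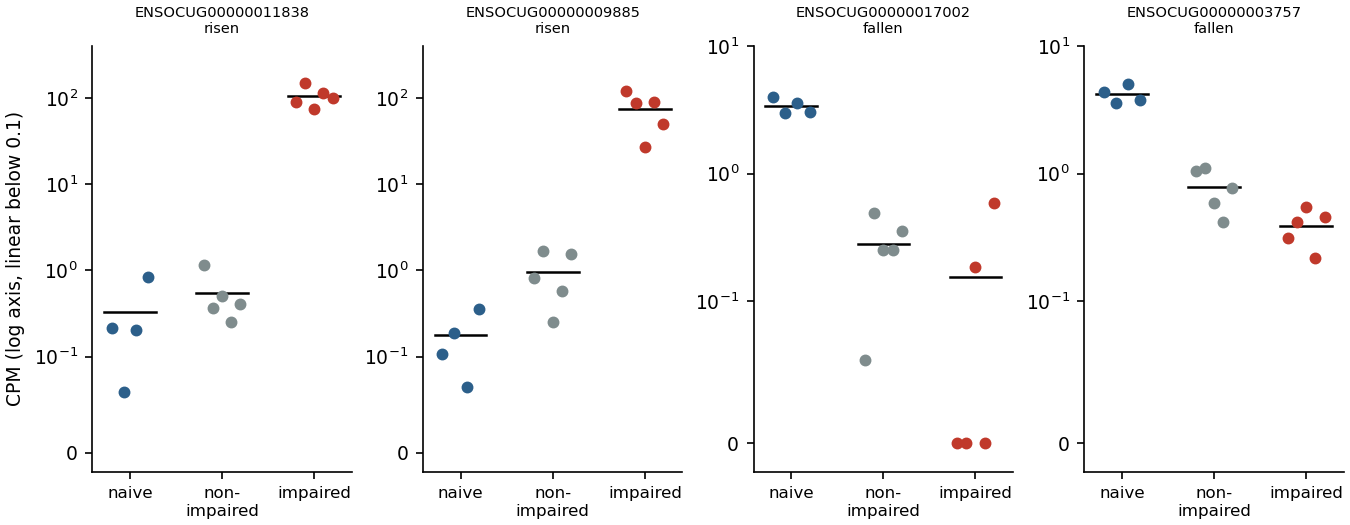
Level of the 4 genes given by ID in each library (vertical, CPM, log axis that is linear below 0.1), with naive libraries in blue (n = 4), non-impaired in grey (n = 5) and impaired in red (n = 5). Lines give group means. Both risen genes stand at 27.1 to 148 CPM in impaired corneas and at most at 1.67 CPM elsewhere, and both fallen genes are low in each exposed library.

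The same rule ranked further genes, not given by ID. The 12 genes ranked highest among the 1104 eligible risen genes had log2 fold changes of 7.23 to 8.97, with means of 0.181 to 3.63 CPM in naive corneas and of 45.3 to 885 CPM in impaired ones. In each of the 12, the lowest impaired library exceeded the highest naive library at least 17.3-fold. Impaired 4 was the highest impaired library in 9 of the 12, and in 6 of them the impaired mean was over 1.5 times that without its highest library. The 12 genes ranked highest among the 947 eligible fallen genes had log2 fold changes of -4.31 to -2.53, with naive means of 3.35 to 62.4 CPM and impaired means of 0.154 to 7.17 CPM. Impaired 4 was the lowest in 6 of these 12 and the highest in 0. The distance between the groups was smaller here, the lowest naive library exceeding the highest impaired library at least 1.88-fold. Naive 4 was the highest naive library in 7 of the 12 risen genes and the lowest in 1. Among the 12 fallen genes, naive 4 was the highest naive library in 3 and the lowest in 6.

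The impaired libraries differed among themselves. Among the 738 genes risen past 1.5-fold, impaired 4 was the highest impaired library in 338, or 45.8%, impaired 1 in 150, impaired 2 in 110, impaired 3 in 87 and impaired 5 in 53. Among the 190 genes fallen past 1.5-fold, impaired 4 was the lowest in 94 and impaired 2 in 52. In 82 of the 738 genes a single library held over 50% of the summed impaired CPM, and in 62 of these it was impaired 4. Even so, the impaired and naive libraries did not overlap in 696 of the 738 and 176 of the 190 genes. Over all tested genes, 24.5% did not overlap. These shares follow from the test that chose the genes and are given as a description.

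Counted library by library, 1052 genes in impaired 1, 1192 in impaired 2, 1077 in impaired 3, 1346 in impaired 4 and 1079 in impaired 5 were at least 2-fold above the mean of 3 naive libraries, averaged over the 4 choices of 3. In naive 1 to 4, set against the other 3 naive libraries, the same count was 193, 190, 85 and 390. Genes at least 2-fold lower numbered 441, 865, 370, 918 and 717 in impaired 1 to 5, and 87, 316, 206 and 302 in naive 1 to 4. Each impaired library exceeded each naive library in both counts, and the number of lower genes varied more among impaired corneas than the number of higher genes.

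Spread between libraries was wider in impaired than in naive corneas. For the 9409 tested genes with a mean of at least 1 CPM over the 9 libraries, the median SD of log2 CPM was 0.259 in impaired and 0.197 in naive corneas, and 65.6% of genes had the larger SD in impaired corneas. Without impaired 1 the impaired median was 0.215, and without naive 4 the naive median was 0.145. Genes that were not called showed the same order, with medians of 0.244 and 0.190. Among genes risen past 1.5-fold with at least 1 CPM the medians were 0.632 and 0.406.

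The calls were also read in libraries that had not made them. Each pair of 1 impaired and 1 naive library was left out in turn, and the fit was repeated. The genes which that fit called were then compared within the pair. Only genes also tested in the fit on all libraries were counted, and the pair values were scaled by TMM over all libraries. The pair thus had a part in the filter and the scaling, but not in the calls. Over the 20 pairs, a median of 98.5% of the genes risen past 1.5-fold were higher in the impaired library of the pair, and a median of 96.7% of the genes fallen past 1.5-fold were lower. Of all genes tested, 50.9% were higher in the impaired library (median over pairs). The median log2 difference in the pair was 2.37 for risen and -1.20 for fallen genes, and the fitted medians were 3.07 and -1.61. The scales differ, since the pair values are log2 CPM with a prior count of 2, which draws low genes towards 0. On that scale the 738 and 190 genes of the fit on all libraries also gave less than their fitted 2.84 and -1.49. Their medians against the naive mean averaged 2.38 and -1.43 over the 5 impaired libraries. These 20 values share libraries and are given without a test.

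The pairs with naive 4 gave the smallest differences. For each impaired library, the median log2 difference of risen and of fallen genes was nearest to 0 in its pair with naive 4. The pairs were not read over like genes. Fits without naive 4 called 754 to 958 risen genes past 1.5-fold, with fitted medians of 2.24 to 2.72. The other fits called 559 to 668, with 2.84 to 3.26. For fallen genes the fitted medians were -1.30 to -1.46 without naive 4 and -1.52 to -1.75 in the other fits. Averaged over its 5 pairs, naive 4 gave 91.7% of risen genes higher and 87.6% of fallen genes lower, with median log2 differences of 1.80 and -0.73. The other naive libraries gave 98.5% to 99.1% and 96.3% to 98.8%.

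The pair of impaired 1 and naive 4 lay lowest. Counted over the genes that both that fit and the fit on all libraries tested, 76.0% of 958 risen genes were higher and 65.4% of 393 fallen genes were lower between impaired 1 and naive 4, with median log2 differences of 1.30 and -0.24. In the other 19 pairs the shares were at least 90.9% for risen and 87.8% for fallen genes. Naive 4 with impaired 3 gave 90.9% and 87.8%, with impaired 5 96.3% and 93.0%, with impaired 4 96.8% and 94.8%, and with impaired 2 98.4% and 97.1%. Impaired 1 with naive 1 to 3 gave 97.6% to 98.3% and 93.9% to 97.6%. The 4 genes given by ID were chosen for groups that did not overlap under the given labels. That impaired 1 lies apart from naive 4 in them was therefore fixed by the rule and says nothing about this pair. Impaired 1 had the lowest total count of the 9 libraries. The part of depth, tissue sampling and labelling in the closeness of this pair was not tested.

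**Figure D5:**
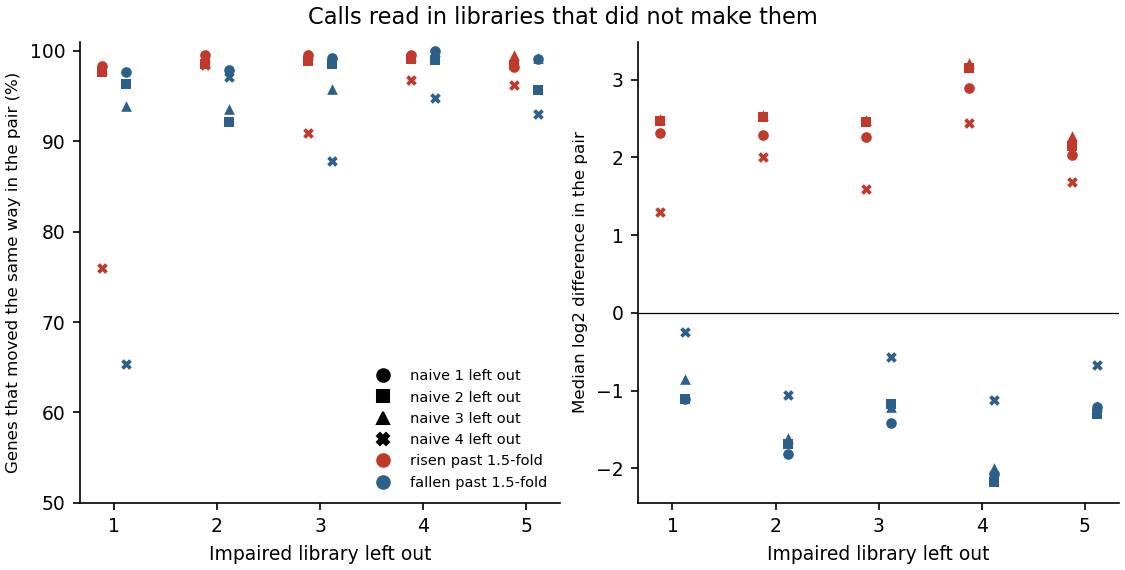
Results of 20 fits, each without 1 impaired and 1 naive library, read in the pair left out. The left panel gives the share of genes past 1.5-fold that moved the same way in the pair (percent, axis from 50), the right panel their median log2 difference; red marks risen and blue fallen genes, and the marker gives the naive library. The cross for impaired 1 with naive 4 lies at 76.0% and 65.4%, below the other pairs.

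Leaving out both libraries of that pair raised the calls, to 2417 risen and 2039 fallen genes, and the genes past 1.5-fold to 969 and 396. Leaving out impaired 4 and naive 4 together gave 1977 risen and 1570 fallen genes, and 764 and 213 past 1.5-fold. These pairs were picked for removal with the values in view. The counts of falling genes depended most on single libraries: past 1.5-fold they went from 190 to 121 without naive 1 and to 124 without naive 2. Of the 738 risen genes, 557 were called past 1.5-fold in each of 9 fits that left out 1 library, against 96 of the 190 fallen genes, which is 75.5% and 50.5%. A fit on the 9 libraries alone called 596 and 141 genes past 1.5-fold, 588 and 131 of them shared with the fit on all groups.

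The high share of impaired 4 was also measured in genes that it had not helped to choose. In the fit without impaired 4, 658 genes rose past 1.5-fold. They took 10.6% of the counts of impaired 4, 4.86% to 5.75% in the other impaired libraries and 1.23% to 1.56% in naive libraries. For comparison, the 774 genes chosen without impaired 1 took 5.74% of its counts, and the 747 chosen without impaired 5 took 5.31%.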

How the data were processed

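RNA-seq was done on whole corneas, with RNA taken by a phenol-based reagent and libraries made from total RNA by a TruSeq kit, per the labels' protocols. The authors deposited raw counts per Ensembl gene ID, 1 table for each library. Per the submitters' processing notes, the build was OryCun2.0, and the tools included DESeq, Cufflinks 2.0.2, TopHat2 2.1.0 and bcl2fastq 2.17. The counting program, its strand setting and its treatment of reads with several matches are not given in the sources used here, so counts of overlapping, antisense or near-identical genes are uncertain.

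The comparison, the named-gene rule and the alternatives were chosen with earlier results of these data known. Genes were kept by the default filter of edgeR 4.0.16 in R 4.3.3, scaled by TMM and fitted in 1 robust quasi-likelihood model over all 3 groups, with 11 residual degrees of freedom. Calls needed a Benjamini-Hochberg adjusted p below 0.05. The same fit gave glmTreat against 1.5-fold and 95% intervals, with standard errors derived from F and the estimate. The intervals were not adjusted for the number of genes. Log2 CPM used a prior count of 2. Named genes were called, did not overlap between groups, had at least 2 CPM in the higher and 10 counts over the lower group, and were ranked by absolute log2 fold change minus 2 SE. Without gene names, the first 2 in each direction are given, and prepared marker and pathway lists could not be applied. Single values per library were compared by exact permutation tests. Alternatives were DESeq2 size factors, no filter or a minimum of 5 CPM in 4 or more libraries, a fit on the 9 libraries alone, DESeq2 1.42.0, limma 3.58.1 with voom, and leaving out libraries. The fits were also run on simulated counts with few changed genes, balanced between the directions. These data differ from that setting, and no result here rests on it. Replicate numbers name libraries in accession order and pair nothing, and the labels give no batch.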

Additional observations from a re-analysis of the deposited data

Results flagged for a closer look

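Values of single libraries were examined for a gap to the nearest library that took most of the range of the group, in 24 sets of 4 or 5 libraries. Chance marks about 1 in 20 such sets, and 2 of the 24 were marked.

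The share of counts in genes risen past 1.5-fold was 11.1% in impaired 4, and the next impaired library had 6.20%. The total of impaired 1 was 12002876 counts, and the next impaired library had 14863749.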

How the results depend on the processing

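Over 79 recounts of risen, fallen, past 1.5-fold and within 1.5-fold genes, 75 stayed within 1.5 times the reported count. The 4 genes given by ID kept their direction and call in all 66 refits that tested them, each gene counted separately. They were picked as extremes of the fit on all libraries, so this was largely fixed by the choice. With at least 5 CPM in at least 4 libraries, 440 genes rose past 1.5-fold, as fewer low genes were tested, the balance of all calls turned to 1525 risen and 1558 fallen, and neither falling gene given by ID was tested. Leaving out 1 of the 9 libraries gave 1544 to 2177 risen and 1103 to 2032 fallen genes, 638 to 839 and 121 to 264 past 1.5-fold, and 3557 to 4028 within it. Without impaired 1 and naive 4, 396 genes fell past 1.5-fold; the cause was not tested. The difference in genes holding 50% of the counts was 33.5 to 51.3 with 1 library left out. It did not pass for 75% of the counts (39.7 genes, exact permutation test, p = 0.381), without the 10 most abundant genes (34.1, p = 0.0556, exact permutation test); the cause was not tested. Without impaired 4 and naive 4 it was 42.5 (p = 0.0571, exact permutation test), and without impaired 1 and naive 4 it was 33.3 (p = 0.0571, exact permutation test). In both settings 4 libraries stood against 3, so fewer splits were possible, and the groups did not overlap. Against 43.7 genes over all 9 libraries, the difference was little changed at 42.5 and smaller at 33.3. The cause was not tested. DESeq2 called 2172 risen and 1796 fallen genes, and limma voom with sample quality weights 2446 and 2083. Low counts limit precision: no gene under 1 CPM had an interval within 1.5-fold. No paired analysis was possible because the labels carry no replicate numbers: numbers follow accession order and pair nothing.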
